A study of Mus musculus with 6 samples.

Results

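On this mouse whole-transcript array, 1810 of 41345 probe sets carried 2 or more different gene symbols in the platform annotation. A probe set is a group of short oligonucleotides summarised to 1 value per array. The members were found by counting the symbols joined in each annotation entry. The annotation joined several entries for 1814 probe sets, and 4 of these repeated a single symbol and were left out. A further 23525 probe sets carried 1 symbol and 16010 carried none. Of the members, 1137 named 2 genes, and the longest entry named 20. The members named 2722 different symbols, and 1797 of these symbols had no probe set of their own.

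The study compared prostate epithelial cancer cells that express the kinase PIM1 with control cells on 6 arrays. Both groups came from Rb1F/F:Trp53F/F:PB-Cre4 mice, in which the probasin promoter drives Cre in prostate epithelium and removes the floxed Rb1 and Trp53 alleles, so the controls lack these genes too. The 3 EV arrays held cells infected with an empty-vector lentivirus, and the 3 PIM1 arrays held cells infected with a PIM1 lentivirus. All cells grew in DMEM with charcoal-stripped serum, insulin, transferrin, selenium, bovine pituitary extract, epidermal growth factor and cholera toxin. The labels give neither an age nor separate cultures, animals or infections. The p-values below thus measure only how these 6 samples vary, and that variation may be technical.

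Shared probe sets arise where a probe can bind several transcripts or where 2 gene models overlap. Recently duplicated families, such as guanylate-binding proteins, class I histocompatibility genes, histones and chemokines, have nearly identical exons. Processed pseudogenes copy the messages of ribosomal proteins and translation factors. Small nucleolar RNAs and microRNAs lie inside the introns or exons of host genes, and neighbouring genes can overlap or be joined by read-through transcripts. A shared value can therefore hold signal of any of the named genes, and which gene gave it cannot be told apart.

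The promoters below belong to genes of immune members that rose, and are shown because such genes are known for short interferon-response motifs near their starts. They are RefSeq sequences of GRCm38.p6, windows of 300 bases that end shortly after the start of transcription, written 5′ to 3′ along the gene. Capitals mark matches on either strand to the core of the interferon-stimulated response element (GAAA, 2 bases of any kind, GAAA), to the STAT-binding GAS element (TTC, 3 bases of any kind, GAA) or to an NF-kB site (GGG, 2 bases of any kind, TTTCC). Of 32851 promoters of this length, 3.44% held the interferon motif, 8.3% the GAS motif and 1.63% the NF-kB motif.
Gbp2 promoter, chr3:142620413-142620712, + strand: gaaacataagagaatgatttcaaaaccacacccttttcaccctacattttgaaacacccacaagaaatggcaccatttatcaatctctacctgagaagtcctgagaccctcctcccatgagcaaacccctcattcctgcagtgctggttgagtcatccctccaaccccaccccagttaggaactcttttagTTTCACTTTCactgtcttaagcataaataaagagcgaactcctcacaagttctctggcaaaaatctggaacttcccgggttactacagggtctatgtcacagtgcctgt
Gbp2b promoter, chr3:142594597-142594896, + strand: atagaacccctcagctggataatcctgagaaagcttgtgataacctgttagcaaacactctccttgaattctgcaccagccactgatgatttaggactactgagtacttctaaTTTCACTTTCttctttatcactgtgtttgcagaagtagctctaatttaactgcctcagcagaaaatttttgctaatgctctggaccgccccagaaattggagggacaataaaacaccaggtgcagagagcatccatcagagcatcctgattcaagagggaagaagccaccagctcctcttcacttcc
Tgtp1 promoter, chr11:48992197-48992496, - strand: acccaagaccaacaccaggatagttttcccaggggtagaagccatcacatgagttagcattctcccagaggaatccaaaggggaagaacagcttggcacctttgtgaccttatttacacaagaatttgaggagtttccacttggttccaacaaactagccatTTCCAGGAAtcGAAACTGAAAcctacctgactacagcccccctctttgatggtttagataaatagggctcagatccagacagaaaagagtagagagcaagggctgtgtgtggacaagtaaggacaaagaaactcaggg
Tgtp2 promoter, chr11:49064163-49064462, - strand: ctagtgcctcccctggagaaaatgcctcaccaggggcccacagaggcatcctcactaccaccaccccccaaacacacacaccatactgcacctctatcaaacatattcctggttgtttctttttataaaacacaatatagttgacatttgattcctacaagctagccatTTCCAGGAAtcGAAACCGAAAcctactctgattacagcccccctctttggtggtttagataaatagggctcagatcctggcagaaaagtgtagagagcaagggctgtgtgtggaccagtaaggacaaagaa
Ifi211 promoter, chr1:173912997-173913296, - strand: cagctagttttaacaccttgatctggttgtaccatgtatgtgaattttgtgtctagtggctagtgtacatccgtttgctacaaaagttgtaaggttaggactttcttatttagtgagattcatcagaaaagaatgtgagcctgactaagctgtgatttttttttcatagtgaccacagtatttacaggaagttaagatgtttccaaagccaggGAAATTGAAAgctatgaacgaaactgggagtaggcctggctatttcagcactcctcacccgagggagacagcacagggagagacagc
H2-T22 promoter, chr17:36042693-36042992, - strand: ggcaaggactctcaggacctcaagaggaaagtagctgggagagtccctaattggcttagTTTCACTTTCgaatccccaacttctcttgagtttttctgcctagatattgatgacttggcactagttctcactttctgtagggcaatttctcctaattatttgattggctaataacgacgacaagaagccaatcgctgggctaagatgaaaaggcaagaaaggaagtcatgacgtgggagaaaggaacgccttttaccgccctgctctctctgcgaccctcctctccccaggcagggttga
The match lay 59 bases before the start of Gbp2, 137 before that of Gbp2b, 37 before that of Ifi211 and 191 before that of H2-T22. Tgtp1 and Tgtp2 held the interferon motif 77 and 70 bases before their starts, each beside a GAS motif that overlapped no base of it. No printed window held the NF-kB motif, and none of the 3 motifs lay in the windows of H2-Q7, H2-D1, Sp100, Sp140, Ifi47, Saa1, Saa2, Ccl27a, Ccl27b or Rnase4, the last of which RefSeq also lists for Ang. All of these genes stood in members that rose. The windows of Slfn8 and Slfn9, which also rose, held the interferon motif and are not printed. Those of Oas1a and Oas1g each held 2 overlapping matches to it, though their shared member did not pass (difference 0.52, limma adjusted p = 0.153). The windows of Gbp2 and Gbp2b were 32.9% identical over 292 bases and those of Tgtp1 and Tgtp2 51.7%. Of the 25 symbols of interferon-inducible members with a promoter in the table, 13 (52.0%) held the interferon motif, compared with 86 of 1827 symbols (4.71%) over all members. Among the symbols of the interferon-inducible members that rose, 7 of 15 (46.7%) held it, and among those of the histocompatibility members 1 of 8 (12.5%). A match describes letters and is not a binding site.

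MicroRNA symbols occurred in 136 members, and 113 of their 148 symbols had an entry in the RefSeq table. The mature sequences below belong to members that passed the test, with the seed (bases 2 to 8) in capitals and positions on GRCm38.p6.
mmu-miR-21a-5p, chr11:86584120-86584141, - strand: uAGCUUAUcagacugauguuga
mmu-miR-22-3p, chr11:75463772-75463793, + strand: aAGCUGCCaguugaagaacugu
mmu-miR-26a-5p, chr10:126995543-126995564, + strand: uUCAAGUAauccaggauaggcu
mmu-miR-27b-3p, chr13:63300760-63300780, + strand: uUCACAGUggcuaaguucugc
mmu-miR-330-3p, chr7:19181525-19181547, + strand: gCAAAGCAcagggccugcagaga
mmu-miR-338-3p, chr11:120014781-120014802, - strand: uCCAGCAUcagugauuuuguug
mmu-miR-682, chr13:75645119-75645139, + strand: cUGCAGUCacagugaagucug
None of these 7 share a seed. The array targeted the host or precursor transcript, so no value below is a level of the mature microRNA.

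Before the members, the arrays themselves were compared. Array medians lay between 3.489 and 3.516 for EV and between 3.385 and 3.417 for PIM1, on the deposited log2 scale. Interquartile ranges were wider in PIM1, at 3.471 to 3.548, than in EV, at 3.226 to 3.259. Pearson correlations over all probe sets were 0.98 to 0.981 between EV arrays, 0.988 to 0.9925 between PIM1 arrays and 0.959 to 0.9637 across groups. Pim1 lay at 5.26, 6.25 and 5.23 in EV and at 7.11, 6.89 and 6.97 in PIM1 and rose by 1.41 ± 0.277 (SE; limma adjusted p = 0.0166). Rb1 did not pass (difference 0.38, adjusted p = 0.383), and since its probes may lie outside the deleted part it checks nothing. Trp53 was not analysed here. The labelled epithelial identity was checked on marker genes with a probe set of their own. Of 9 luminal epithelial markers, 1 rose and 2 fell, and their mean level went from 4.93–5.06 to 4.45–4.54. Krt18, a luminal keratin, fell by 4.24, whereas Krt8 (-0.08, adjusted p = 0.707) and Krt19 (-0.73, adjusted p = 0.0727) did not pass. Cdh1 fell by 0.94 and Cd24a rose by 1.65. Epcam was near the bottom of the scale in both groups (2.28 to 2.51). Of 10 basal markers, 3 fell. Of 12 fibroblast markers 8 rose and 2 fell, with mean levels of 6.11–6.17 in EV and 7.56–7.63 in PIM1. Leukocyte markers, macrophage genes included, lay at 3.35–3.41 and 3.14–3.33, and 1 of 12 rose while 1 fell. The part of these markers in the results below was not tested, and in such bulk RNA fewer cells of a type and less RNA per cell cannot be told apart.

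Of the 1810 members, 168 were higher and 169 lower in PIM1 at an adjusted p under 0.05 (limma, Benjamini-Hochberg over all 41345 probe sets). Such probe sets are called below. They made up 18.6% of the members, beside 16.3% of all probe sets, of which 8.99% were called higher and 7.33% lower. A call with at least a 2-fold difference was made for 102 members, 64 of them higher, beside 5.61% of all probe sets. The median difference was -0.08 over the members and -0.09 over all probe sets. Groups did not overlap in 789 members (43.6%), beside 36.8% of all probe sets. The share called moved with the level: 28.8% of the 1014 members above the table's median level of 3.45 were called and 5.65% of those below it, beside 28.2% and 4.4% of all probe sets. The count depended on single arrays. It was 176 without PIM1 replicate 1 and 164 without PIM1 replicate 2. In all, 187 of the 337 calls were lost in at least 1 of the 6 fits that left out an array. They included all 128 calls with an adjusted p of 0.02 or more and 59 of the 209 below 0.02. The smallest adjusted p of a lost call was 0.00979. When each array was centred on its median, 217 of 337 calls were higher (64.4%, beside 49.9% as deposited). Quantile normalization gave 145 higher and 188 lower calls (43.5% higher), and cyclic loess 156 and 176 (47.0% higher).

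**Figure D1:**
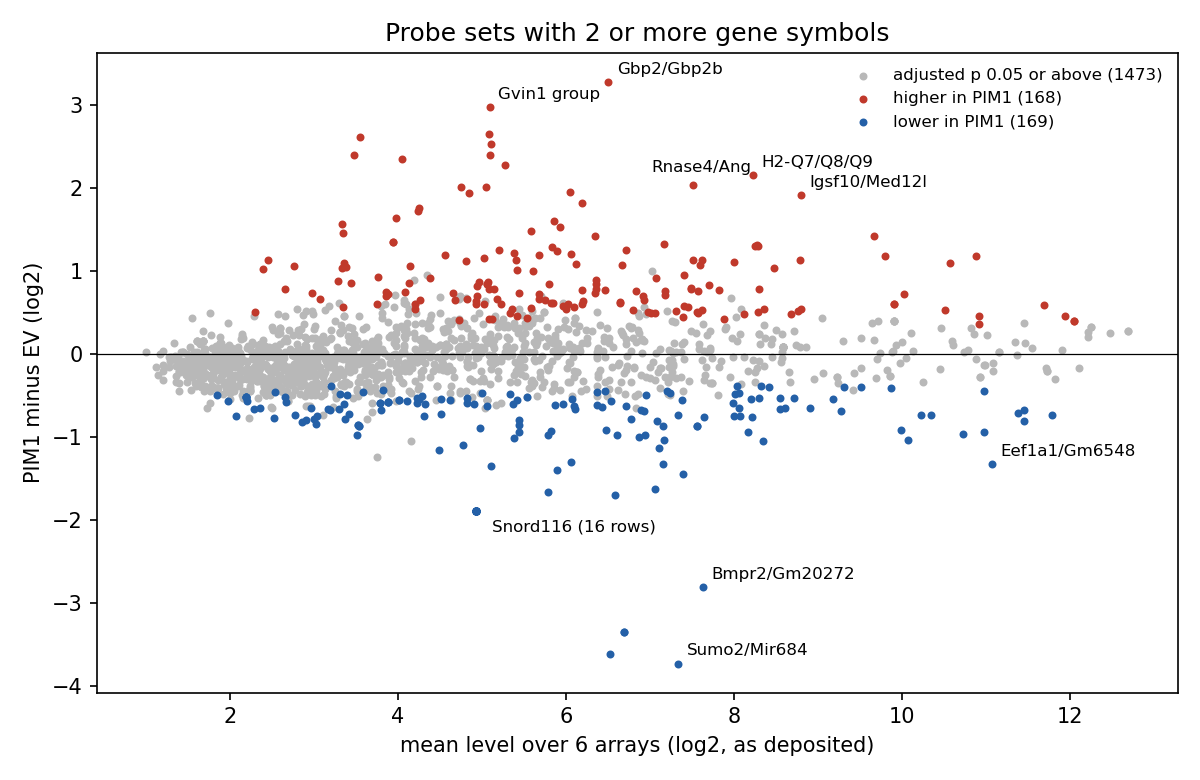
Each point is 1 of 1810 probe sets with several symbols, with its mean level over 6 arrays (log2) on the horizontal axis and the PIM1 minus EV difference (log2) on the vertical axis. Red and blue points are the 168 higher and 169 lower calls; most calls lie above a level of 3.45, and the differences run from -3.73 to 3.28.

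The members fell into 5 kinds by the names they join. In 513 members 1 named gene stood with predicted loci or clones, and 48 of these rose and 42 fell. Another 405 joined genes of 1 name stem, such as Gbp2 and Gbp2b, of which 34 rose and 28 fell. In 495 members the genes had unrelated names, and 67 rose and 37 fell. Only predicted loci or clones were named in 204 members, of which 4 rose and 22 fell. A small RNA stood with other symbols in 193, of which 15 rose and 40 fell. With identical rows counted once, 15 of these small RNA members rose and 22 fell. The shares called in the 5 kinds were, in the order given, 17.5%, 15.3%, 21%, 12.7% and 28.5%, beside 16.3% of all probe sets. In that order the calls of the 5 kinds became 46, 29, 61, 9 and 31 without PIM1 replicate 1, and 42, 31, 51, 8 and 32 without PIM1 replicate 2. Without PIM1 replicate 3 the first kind gave 52 calls, and the members of predicted loci or clones alone gave 13, beside 14 without EV replicate 2. Only 5 falls of these last members were counted without PIM1 replicate 1 or 2, and with arrays centred on their medians 7 rose and 11 fell. The members were also split by position in the gene order of RefSeq, where 2636 of 2724 Entrez identifiers matched. The genes were immediate neighbours in 632 members, of which 72 rose and 38 fell, and 2 to 10 genes apart in 404, of which 52 rose and 16 fell. They lay further apart on 1 chromosome in 510 members, of which 17 rose and 75 fell. They lay on several chromosomes in 200 members, of which 21 rose and 36 fell. Of the immediate neighbours 17.4% were called and of genes 2 to 10 apart 16.8%, both close to the 16.3% of all probe sets. Of the members on several chromosomes 28.5% were called. Of the distant genes of 1 chromosome 3.33% rose and 14.7% fell, beside 8.99% and 7.33% of all probe sets. Among all probe sets below the table's median level, 1.05% rose and 3.35% fell. These 510 members held only 362 distinct sets of values. Of their 75 falls, 20 came from 48 small RNA members with 11 distinct sets of values. With identical rows kept once, 13 of the distant members rose and 51 fell. The calls of these 4 groups became 56, 38, 43 and 31 without PIM1 replicate 1, and 50, 34, 46 and 27 without PIM1 replicate 2. Without PIM1 replicate 3 the immediate neighbours gave 69. With arrays centred on their medians the members on several chromosomes gave 34 rises and 28 falls. The group on several chromosomes was the brightest, with a median level of 6.75 beside 2.7 for distant genes of 1 chromosome. The difference between these kinds was not tested.

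Many members were copies of each other. Identical values on all 6 arrays were shared by 301 members in 106 groups. Counting any other probe set of the table as a partner, 17% of members shared their values, beside 0.536% of probe sets with 1 symbol. The members hold 1615 distinct value patterns. Counted once per pattern, 164 rose and 142 fell. The largest group had 16 probe sets, all named Gm26504/Snord116l1/Snord116l2, and 14 groups with a call held 45 of the called members. Identical rows are counted as separate probe sets unless stated, and are 1 measurement.

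Interferon-inducible genes were the family with the largest share of calls among those with 10 or more members. Of 23 members 14 rose and 0 fell, with a median difference of 0.67, beside 39 higher and 1 lower of 103 probe sets with 1 symbol in the same family (median 0.20). The 8 largest of these rises were called in all 6 fits that left out an array. The count was 8 without PIM1 replicate 3, and 9 without EV replicate 2, PIM1 replicate 1 or PIM1 replicate 2. The largest rise of all members was that of Gbp2/Gbp2b, guanylate-binding GTPases induced by interferon. It read 4.50, 5.32 and 4.76 in EV and 8.12, 8.19 and 8.12 in PIM1, a difference of 3.28 ± 0.209 (SE, n = 3 per group; adjusted p = 0.00018). The 3 PIM1 arrays were nearly equal and lay far above every EV array. Gbp2b has a probe set of its own, which read 2.38, 2.84 and 2.98 in EV and 2.38, 2.44 and 2.74 in PIM1 (difference -0.21, adjusted p = 0.498). Gbp2 has none.

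Gvin1, a very large interferon-inducible GTPase, was joined with the predicted copies Gm4070, Gm8979 and Gm8989 in 4 probe sets. Their differences were 2.98 and 2.65 in the 2 sets that name all 4 loci, and 2.53 and 2.28 in the 2 sets that name Gvin1 and Gm4070. In the set that rose most, the EV arrays read 3.43, 3.45 and 3.93 and the PIM1 arrays 6.34, 6.67 and 6.75 (adjusted p = 0.00016). All 4 sets started at EV levels between 3.39 and 4.40, and all PIM1 arrays lay between 6.12 and 6.75. A set naming only Gm4841 and BC023105 rose by 2.62 ± 0.262 (adjusted p = 0.00111), and both symbols rose on their own probe sets too (Gm4841 by 1.87 and BC023105 by 1.27).

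The Sp100 and Sp140 group, nuclear body proteins that read chromatin, appeared in several members. The set headed by C130026I21Rik and Sp140 read 3.72, 3.55 and 4.39 in EV and 6.21, 6.39 and 6.26 in PIM1 (difference 2.40 ± 0.222, adjusted p = 0.000822). Smaller rises were measured for Sp140 in 2 other sets (0.67 and 0.51, adjusted p = 0.0291 and 0.0209) and for Gm7609/Sp100 (0.86, adjusted p = 0.0442). Sp110/A530040E14Rik did not pass (0.39, adjusted p = 0.103). C130026I21Rik has 3 own probe sets, and none passed (-0.57, -0.42 and -0.13). The loci of this group thus gave values from -0.57 to 2.40 depending on the probe set.

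Further interferon-inducible members rose by less. Ifi27l2a/Ifi27l2b, small mitochondrial proteins, read 2.62, 2.62 and 2.43 in EV and 3.87, 4.45 and 4.05 in PIM1 (difference 1.57, adjusted p = 0.00147), while the own set of Ifi27l2b stood at -0.40 (adjusted p = 0.202). Ifi211/Ifi204, DNA-binding proteins of the PYHIN group, rose from 7.92, 7.94 and 8.03 to 9.08, 9.06 and 8.88 (difference 1.04 ± 0.109, adjusted p = 0.00132), while the own set of Ifi204 stood at 0.12 (adjusted p = 0.506). One set of the immunity-related GTPases Tgtp1 and Tgtp2 rose by 1.03 (adjusted p = 0.0176) and the other stood at -0.24 (adjusted p = 0.343). The call was lost without EV replicate 2, PIM1 replicate 1 or PIM1 replicate 3 (adjusted p = 0.0528 to 0.071). Ifi47, another such GTPase, rose by 0.93 in a set that also names an olfactory receptor, Olfr56 (adjusted p = 0.0287), and the Schlafen pair Slfn9/Slfn8 rose by 0.48 (adjusted p = 0.0201). The calls of Ifi47, Slfn9/Slfn8, Gm7609/Sp100 and the smaller Sp140 sets were each lost without PIM1 replicate 2 or 3 (adjusted p = 0.0532 to 0.122). Oas1a/Oas1g, the antiviral oligoadenylate synthetases, read 2.27, 2.94 and 2.95 in EV and 3.44, 3.12 and 3.15 in PIM1 and did not pass (0.52, adjusted p = 0.153). The 10 members that name type I interferon genes themselves gave 0 calls in limma, 6 at an unadjusted p under 0.05, and differences from -0.09 to 0.96.

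Class I histocompatibility genes present peptides to T cells or serve as ligands of other lymphocytes. Of 7 histocompatibility members 3 rose and 0 fell (median 0.46), beside 6 higher and 1 lower of 37 probe sets with 1 symbol. H2-Q7/H2-Q9/H2-Q8 is the Qa-2 group. It read 7.31, 7.18 and 6.95 in EV and 9.41, 9.27 and 9.22 in PIM1, a difference of 2.16 ± 0.131 (adjusted p = 0.000148). A dimmer set with the same 3 symbols read 3.45, 3.33 and 3.51 in EV and 4.29, 3.80 and 3.09 in PIM1, overlapped between groups and did not pass (0.30, adjusted p = 0.529). H2-T22/H2-T9, ligands of gamma-delta T cell receptors, rose from 5.79, 5.43 and 5.71 to 6.99, 7.08 and 7.13 (difference 1.42 ± 0.128, adjusted p = 0.000734). H2-Q2/H2-D1 holds H2-D1, a classical class I chain. It rose by 0.54 (adjusted p = 0.0406), and lost its call in each of the 6 fits that left out an array (adjusted p = 0.0502 to 0.112). Raet1e/Raet1d, stress ligands of the NKG2D receptor, went the other way, from 7.21, 7.49 and 7.58 to 6.37, 6.48 and 6.51 (difference -0.97 ± 0.131, adjusted p = 0.0037).

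Among 33 chemokine members 9 rose and 0 fell, beside 17 higher and 1 lower of 54 chemokine probe sets with 1 symbol. Every one of the 9 names Ccl27a or Ccl27b, skin-type chemokines of several nearly identical gene copies. Counted once per pattern these were 7 of 22. The largest, Ccl27a with 4 predicted copies, read 3.20, 3.60 and 2.96 in EV and 4.30, 4.83 and 4.70 in PIM1 (difference 1.35 ± 0.21, adjusted p = 0.00663), and 1 of the probe sets named for Ccl27a alone held the same values. The other Ccl27a set gave 0.07 (adjusted p = 0.888). Another set, headed by Ccl27b and Gm13306, rose by 1.16 ± 0.11 (adjusted p = 0.000916). The members with Ccl19 or Ccl21a to Ccl21d, lymph node chemokines, lay between 2.59 and 4.62 on all arrays, and none passed. The differences of the sets that name Ccl19, Ccl21a or Ccl21b ran from -0.30 to -0.03.

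**Figure D2:**
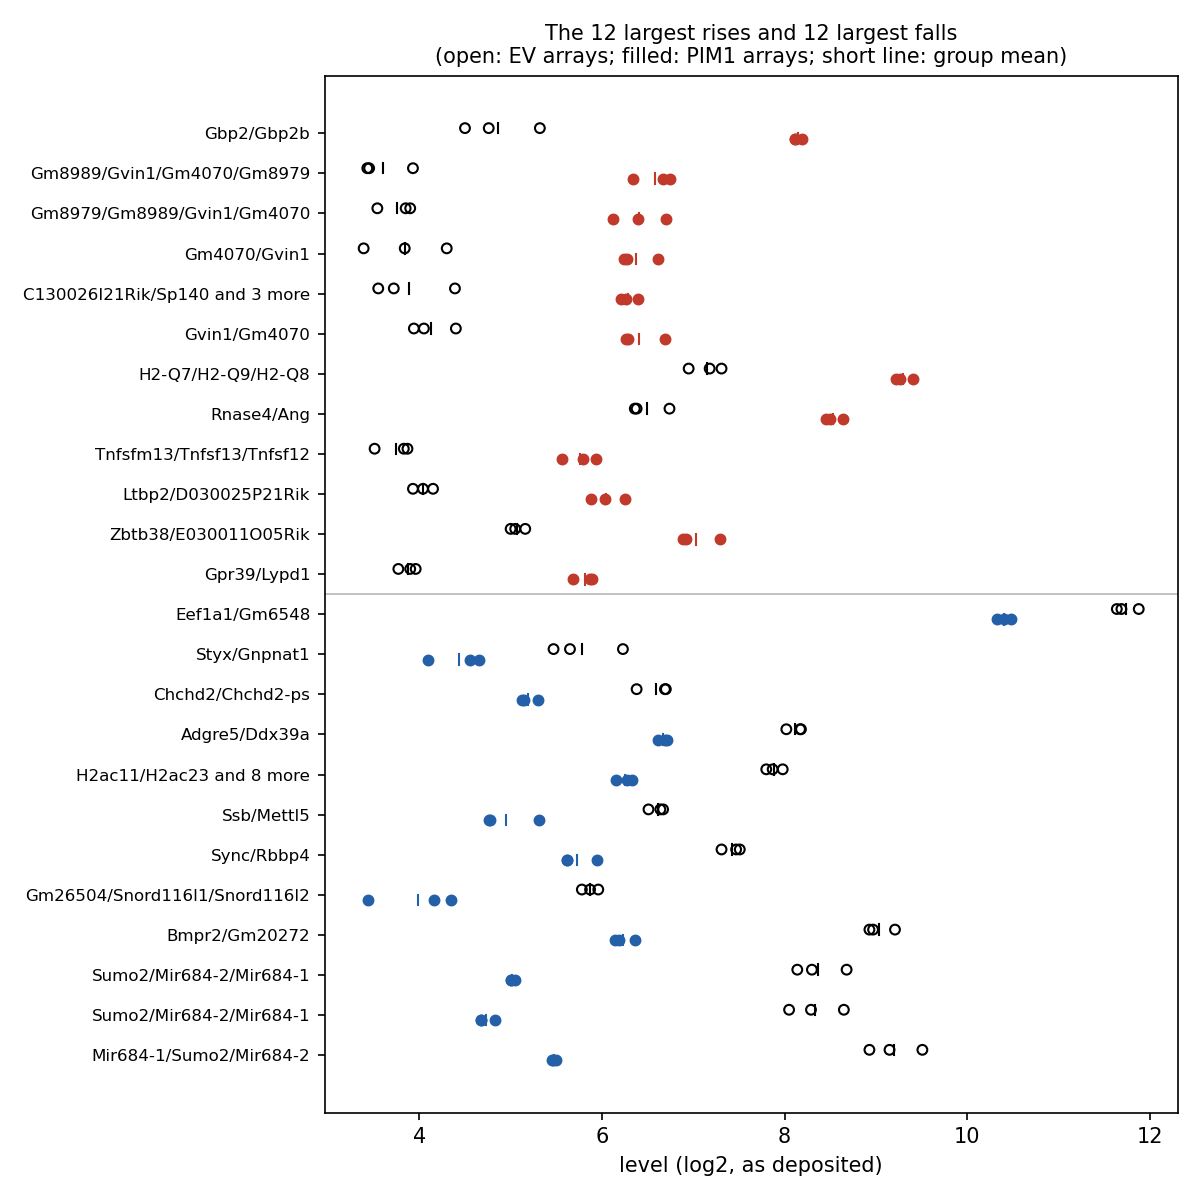
Levels (log2, horizontal axis) of the 12 largest rises and 12 largest falls among called members, 1 row per probe set; open circles are the 3 EV arrays, filled circles the 3 PIM1 arrays and short lines the group means. In every row the groups do not overlap, which the naming rule required; Gbp2/Gbp2b goes from a mean of 4.86 to one of 8.15, and the Sumo2 sets fall from above 8 to near 5.

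Several of the largest rises joined genes that overlap or lie side by side. Rnase4/Ang names ribonuclease 4 and angiogenin, which share a start site in the annotation above. It read 6.38, 6.74 and 6.36 in EV and 8.45, 8.50 and 8.64 in PIM1 (difference 2.04 ± 0.139, adjusted p = 0.000234). Tnfsf12/Tnfsf13, the cytokines TWEAK and APRIL with their fusion transcript Tnfsfm13, read 3.51, 3.83 and 3.87 in EV and 5.56, 5.79 and 5.93 in PIM1 (difference 2.02 ± 0.151, adjusted p = 0.000336). Neither of these sets shared a level between groups.

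Gpr39/Lypd1 names a zinc-sensing receptor and a GPI-anchored protein. It rose from 3.96, 3.77 and 3.90 to 5.68, 5.87 and 5.89 (difference 1.94 ± 0.115, adjusted p = 0.000132). Another set with the same symbols stood at 0.36 and was not called. Igsf10/Med12l, an immunoglobulin superfamily protein and a Mediator subunit, was brighter, at 7.81, 7.88 and 7.85 in EV and 9.69, 9.76 and 9.84 in PIM1 (difference 1.92 ± 0.1, adjusted p = 8.64e-05). Med12l alone lay near 3 on all arrays and differed by 0.01 (adjusted p = 0.977).

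Gstz1/Pomt2, a glutathione transferase of tyrosine breakdown and a protein O-mannosyltransferase, rose from 5.19, 5.40 and 5.23 to 7.19, 7.12 and 6.98 (difference 1.82 ± 0.115, adjusted p = 0.000174). Trf/Srprb names the iron carrier transferrin and a subunit of the signal recognition particle receptor. It read 3.08, 3.57 and 3.45 in EV and 5.04, 5.09 and 5.25 in PIM1 (difference 1.76 ± 0.154, adjusted p = 0.000652), and the own set of Srprb rose by 0.48 (adjusted p = 0.0216). Eid1/Shc4 rose by 1.61 in 1 set and 0.74 in another (adjusted p = 0.0426, but 0.0931 to 0.135 without EV replicate 1 or 2 or any one of the PIM1 arrays). Zeb2/Zeb2os rose by 1.46. Zeb2, a repressor of epithelial genes, stood here with its antisense transcript, and the value does not tell which of them gave it. Its EV arrays read 2.61, 2.57 and 2.66 and its PIM1 arrays 3.80, 4.22 and 4.19 (adjusted p = 0.000989). Parp10/Plec rose by 1.49 (adjusted p = 0.0165) with EV arrays spread from 4.17 to 5.41, and lost its call without any one of the PIM1 arrays (adjusted p = 0.0568 to 0.0639).

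Members that pair a named gene with an antisense or clone transcript included Ltbp2/D030025P21Rik, where Ltbp2 is an extracellular matrix protein that binds latent growth factors. It rose from 4.15, 4.04 and 3.93 to 6.03, 6.25 and 5.88 (difference 2.01 ± 0.135, adjusted p = 0.000221), and the own set of Ltbp2 rose by 2.23 (adjusted p = 0.000152). Zbtb38/E030011O05Rik, a methyl-DNA-binding zinc finger protein, rose by 1.96 and 1.72 in 2 sets, and its own set by 1.08 (adjusted p = 0.00972). Peg3/Peg3os, an imprinted zinc finger gene and its antisense, rose by 1.10 (adjusted p = 0.0284, but 0.0504 to 0.0994 without EV replicate 2, PIM1 replicate 1 or PIM1 replicate 2), and the own set of Peg3 rose by 3.21 (adjusted p = 0.000329). Txnip/Gm15441 rose by 1.04 (adjusted p = 0.00508) beside 1.77 for Txnip alone, the inhibitor of thioredoxin. In these 4 pairs the shared and own sets were called in the same direction.

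Prl2c2 with Prl2c3, Prl2c4 and Prl2c5 are proliferin genes of the prolactin family. They had 2 members, whose EV arrays lay between 7.52 and 7.74 and whose PIM1 arrays lay between 8.85 and 9.06, without overlap. The differences were 1.31 ± 0.105 and 1.30 ± 0.114 (adjusted p = 0.000448 and 0.000665). Prl2c5 on its own set did not pass (-0.02, adjusted p = 0.968). Saa1/Saa2, acute-phase serum amyloid proteins, read 1.68, 2.12 and 1.85 in EV and 2.53, 3.22 and 3.28 in PIM1 (difference 1.13, adjusted p = 0.0185). Saa2 alone rose by 2.60 ± 0.148 (adjusted p = 0.000118). The shared set lost its call without EV replicate 1 or 3 or PIM1 replicate 2 or 3 (0.99 to 1.11, adjusted p = 0.0517 to 0.0732).

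The 4 members that named Sumo2, a ubiquitin-like protein that is conjugated to other proteins, with the microRNA genes Mir684-1 and Mir684-2 fell more than any other member. The brightest read 9.51, 9.15 and 8.93 in EV and 5.50, 5.45 and 5.46 in PIM1, a difference of -3.73 ± 0.16 (adjusted p = 4.56e-05). The other sets differed by -3.61 and -3.35, the last of these a value shared by 2 identical rows. The own set of Sumo2 read 7.76, 7.79 and 7.71 in EV and 8.09, 7.82 and 8.14 in PIM1 and did not pass (0.26, adjusted p = 0.207). The shared sets of Sumo2 fell on every PIM1 array, whereas all EV arrays of its own set lay just below the PIM1 arrays.

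Bmpr2/Gm20272 names the type II receptor of bone morphogenetic proteins and a predicted locus. It read 9.21, 8.97 and 8.93 in EV and 6.19, 6.14 and 6.36 in PIM1 (difference -2.81 ± 0.125, adjusted p = 4.96e-05). The own set of Bmpr2 read 9.95, 9.79 and 9.89 in EV and 9.48, 9.53 and 9.82 in PIM1 and did not pass (-0.26, adjusted p = 0.221). The groups of the shared set lay far apart, and those of the own set overlapped.

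Other large falls joined neighbouring genes. Sync/Rbbp4 names syncoilin and a histone-binding subunit of chromatin complexes. It fell from 7.51, 7.47 and 7.31 to 5.62, 5.62 and 5.95 (difference -1.70 ± 0.135, adjusted p = 0.000433), and 1 of the own sets of Rbbp4 fell by 1.53 (adjusted p = 0.0017) while the other did not pass (-0.42, adjusted p = 0.0659). Ssb/Mettl5 names the La RNA-binding protein and an RNA methyltransferase. It read 6.67, 6.64 and 6.51 in EV and 4.76, 4.77 and 5.31 in PIM1 (difference -1.66, adjusted p = 0.00129), beside a fall of 0.51 in the own set of Ssb. Adgre5/Ddx39a, the adhesion receptor CD97 and an RNA helicase, fell from 8.02, 8.18 and 8.17 to 6.71, 6.61 and 6.69 (difference -1.45 ± 0.104, adjusted p = 0.000281). On its own set Ddx39a did not pass (-0.54, adjusted p = 0.106).

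Chchd2/Chchd2-ps, a mitochondrial protein and its pseudogene, fell by 1.40 (adjusted p = 0.000824), Styx/Gnpnat1 by 1.35 (adjusted p = 0.0109) and Itprip/Cfap43 by 1.30 (adjusted p = 0.00107). Gnpnat1, an enzyme of hexosamine synthesis, stood at 0.45 on its own set and did not pass. Mphosph8/Gm16973, a subunit of the HUSH silencing complex, fell by 1.13 (adjusted p = 0.00593), and Cnot1/Gm6158, the scaffold of the CCR4-NOT deadenylase, by 1.05 (adjusted p = 0.00141) and, in another set, by 0.41 (adjusted p = 0.0442, but 0.0506 to 0.157 in the 6 fits that left out an array). Sprr2a1 to Sprr2a3, cornified envelope proteins, fell by 0.98 in the set that changed most (adjusted p = 0.0149).

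Small RNAs accounted for 193 members, of which 55 were called (28.5%, beside 16.3% of all probe sets). Their median level was 4.86, and of all probe sets above the table's median level 28.2% were called. On distinct values the small RNA calls were 37 of 142 (26.1%), with 15 higher and 22 lower. The 55 calls became 31 without PIM1 replicate 1 (4 higher) and 32 without PIM1 replicate 2 (6 higher). The Snord116 set, small nucleolar RNAs of the imprinted Snrpn region, read 5.78, 5.87 and 5.96 in EV and 3.44, 4.16 and 4.35 in PIM1 (difference -1.89 ± 0.234, adjusted p = 0.00265). Its 16 rows are 1 measurement. The own set of Gm26504 fell by 1.80 (adjusted p = 0.00106). The brighter of 2 sets of Snrpn/Snurf, the protein-coding genes of that imprinted region, read 5.36, 5.09 and 5.53 in EV and 4.43, 4.15 and 4.08 in PIM1 (difference -1.10 ± 0.158, adjusted p = 0.00467). The dimmer set, near 3, differed by -0.27 and did not pass (adjusted p = 0.508).

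Small nucleolar RNAs guide the modification of ribosomal RNA, and their sets moved both ways beside their hosts. Snord57/Nop56 read 10.48, 10.73 and 10.58 in EV and 9.21, 9.57 and 9.89 in PIM1 (difference -1.04, adjusted p = 0.0114), whereas the brightest own set of Nop56, a core protein of these particles, rose by 0.49 (adjusted p = 0.0181). Snora5c/Tbrg4 fell by 0.73 (adjusted p = 0.0106) and Snora43/Snhg7 by 0.69 (adjusted p = 0.00444). The 3 sets of snoRNAs hosted by Rpl13a rose by 0.83 (Snord34), 0.59 (Snord32a) and 0.55 (Snord33), with adjusted p from 0.0166 to 0.0316, and each lost its call without PIM1 replicate 1 or 2 (adjusted p = 0.0698 to 0.11). Snord68/Rpl13/Rpl13-ps6 rose from 5.54, 4.88 and 5.05 to 6.72, 7.10 and 6.24 (difference 1.53 ± 0.263, adjusted p = 0.00979), beside a fall of 1.16 in the dimmer of the own sets of Rpl13. The adjusted p of this shared set equals the smallest of any call lost in a fit that left out an array, so its own call may be the one lost. Of 2 shared sets that name only Rpl13 and Rpl13-ps6, 1 was called lower (-0.89) and the other stood at 0.32 and was not called.

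Of the 136 microRNA members 12 rose and 16 fell, beside 8.99% and 7.33% of all probe sets. These 28 calls became 10 without PIM1 replicate 1, 12 without PIM1 replicate 2, and 18 without EV replicate 2 or PIM1 replicate 3. Vmp1/Mir21a holds the precursor of miR-21a-5p, whose seed is AGCUUAU, in the gene for a vacuole membrane protein. It read 6.91, 6.76 and 6.77 in EV and 7.30, 7.22 and 7.38 in PIM1 (difference 0.49 ± 0.106, adjusted p = 0.0235), and the own set of Vmp1 did not pass (-0.40, adjusted p = 0.163). Mir22hg/Mir22/Tlcd2 rose by 0.67 (adjusted p = 0.0341) and Ctdsp2/Mir26a-2/Mir546, where Ctdsp2 is a small phosphatase, by 0.54 (adjusted p = 0.0271). Mir27b/Aopep fell by 0.55, Mir330/Eml2 by 0.53 and Mir338/Mir3065 by 0.48 (adjusted p = 0.025, 0.0267 and 0.0355). A dimmer set of Mir338/Mir3065 differed by -0.26 and did not pass (adjusted p = 0.284). Each of these 6 calls was lost without PIM1 replicate 1 or 2 (adjusted p = 0.0554 to 0.121). Rpl37a/Mir682 was the firmest of the called microRNA sets with a sequence above. It read 10.51, 10.41 and 10.42 in EV and 9.57, 9.62 and 9.41 in PIM1 (difference -0.91 ± 0.107, adjusted p = 0.00219), while the own set of Rpl37a differed by -0.08 (adjusted p = 0.837). Igf2bp1/Mir3063, an RNA-binding protein of fetal growth, fell by 0.85 (adjusted p = 0.00194).

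Ribosomal protein members numbered 71, of which 10 rose and 13 fell, beside 23 higher and 30 lower of 213 ribosomal protein sets with 1 symbol. Of the 71 members 32.4% were called, beside 16.3% of all probe sets. They were bright (median level 6.73), and of all probe sets above a level of 3.45, 28.2% were called. The count includes sets that join a small RNA with a ribosomal host gene, such as Snord68/Rpl13/Rpl13-ps6 above. The median difference of the 71 members was -0.03. With arrays centred on their medians 14 rose and 6 fell. The 23 calls became 9 without PIM1 replicate 1 or 2, and 13 without EV replicate 1 or 2. Gm10420/Gm5978/Rps2 fell from 7.30, 7.50 and 7.30 to 6.34, 6.51 and 6.23 (2-fold lower, SE 0.123 on the log2 scale, adjusted p = 0.00259). The other set with these 3 symbols stood at 0.15 and was not called. Rpl23a with predicted copies, at levels above 11 in EV, fell by 0.96 and 0.94, beside 0.88 on its own set. A dimmer set of Rpl23a, Gm10132 and Gm3362, near 7, differed by -0.09 and did not pass (adjusted p = 0.801). One of 2 sets that name Rpl21 with the same 5 predicted loci rose by 1.26 ± 0.162 (adjusted p = 0.0031), and the other stood at -0.20 (adjusted p = 0.49). Gm10051/Rpl28 rose by 0.89 (adjusted p = 0.00385).

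Of 11 translation factor members 3 fell and 0 rose, beside 9 higher and 9 lower of 71 translation factor sets with 1 symbol. Among the 3 falls was Snora81/Eif4a2 (-0.62, adjusted p = 0.0357), which is also counted under small RNAs. For this set, an own probe set of its symbols was called higher. Eef1a1/Gm6548, the factor that delivers aminoacyl-tRNA to the ribosome, read 11.88, 11.69 and 11.64 in EV and 10.40, 10.48 and 10.33 in PIM1 (difference -1.33 ± 0.113, adjusted p = 0.000576). The own sets of Eef1a1 differed by -0.07 and -0.19 and did not pass, while that of the copy Gm6548 fell by 0.63 (adjusted p = 0.0113). Eif3j2/Eif3j1, a subunit of an initiation factor, fell from 7.97, 7.77 and 7.69 to 6.56, 6.41 and 6.50 (difference -1.32 ± 0.117, adjusted p = 0.000695). Among 11 respiratory chain members 4 rose and 2 fell, and without PIM1 replicate 3 these were 2 and 1. Of 111 respiratory chain sets with 1 symbol 15 were higher and 10 lower. Cox6c/Gm6265 rose from 9.30, 9.11 and 9.23 to 10.40, 10.35 and 10.42 (difference 1.18 ± 0.104, adjusted p = 0.000665), and another set of these symbols rose by 0.42 (adjusted p = 0.0465, but 0.0646 to 0.151 in the 6 fits that left out an array). Ndufs5-ps/Ndufs5 rose by 1.26 (adjusted p = 0.00702) and Uqcr10/Gm6293 fell by 0.94 (adjusted p = 0.00524). The own set of Ndufs5 differed by -0.15 and did not pass (adjusted p = 0.636).

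Histone genes lie in clusters of near-identical copies, and 59 members held them, of which 4 rose and 7 fell, beside 3 higher and 9 lower of 51 histone sets with 1 symbol. The set headed by H2ac11 fell from 7.80, 7.87 and 7.98 to 6.33, 6.27 and 6.15 (difference -1.63 ± 0.109, adjusted p = 0.000221). The same H2A symbols occur in 7 distinct probe sets, and their differences ran from -1.63 to 0.40. H2bc4/H2bc8/H2bc6, H2B genes, rose from 8.91, 8.98 and 8.97 to 10.43, 10.48 and 10.25 (difference 1.43 ± 0.109, adjusted p = 0.000362). Another set of these 3 symbols differed by 0.07 and did not pass (adjusted p = 0.802). The 11 histone calls became 5 without PIM1 replicate 2, 6 without PIM1 replicate 1 and 7 without EV replicate 1, and 7 higher and 6 lower were called with arrays centred on their medians.

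Families expressed mainly in germ cells, sensory tissue or gut lay below the table's median level of 3.45. The 109 members of X and Y ampliconic spermatid genes had a median level of 1.72, and 0 were called in limma (0 at an unadjusted p under 0.05). The 60 vomeronasal, taste and trace amine receptor members (median level 2.36) and the 11 defensin members (3.42) also gave 0 calls in limma (16 and 2 at an unadjusted p under 0.05). Among 45 members of PRAME, oogenesin and early embryo genes (median level 2.67) 18 fell and 0 rose. Beside them, 7 of 69 probe sets with 1 symbol in this family were lower and 0 higher. Counted once per value pattern, 14 of 37 members fell. The falls made up 40.0% of the 45 members, beside 7.33% of all probe sets and 3.35% of those below a level of 3.45. The median difference of the 45 members was -0.39. Their differences ran from -0.84 to 0.13. The count of falls among the 45 members was 5 without PIM1 replicate 1, 7 without PIM1 replicate 2, and 9 without EV replicate 3 or PIM1 replicate 3. It was 9 after quantile normalization and 11 after cyclic loess or with arrays centred on their medians.

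**Figure D3:**
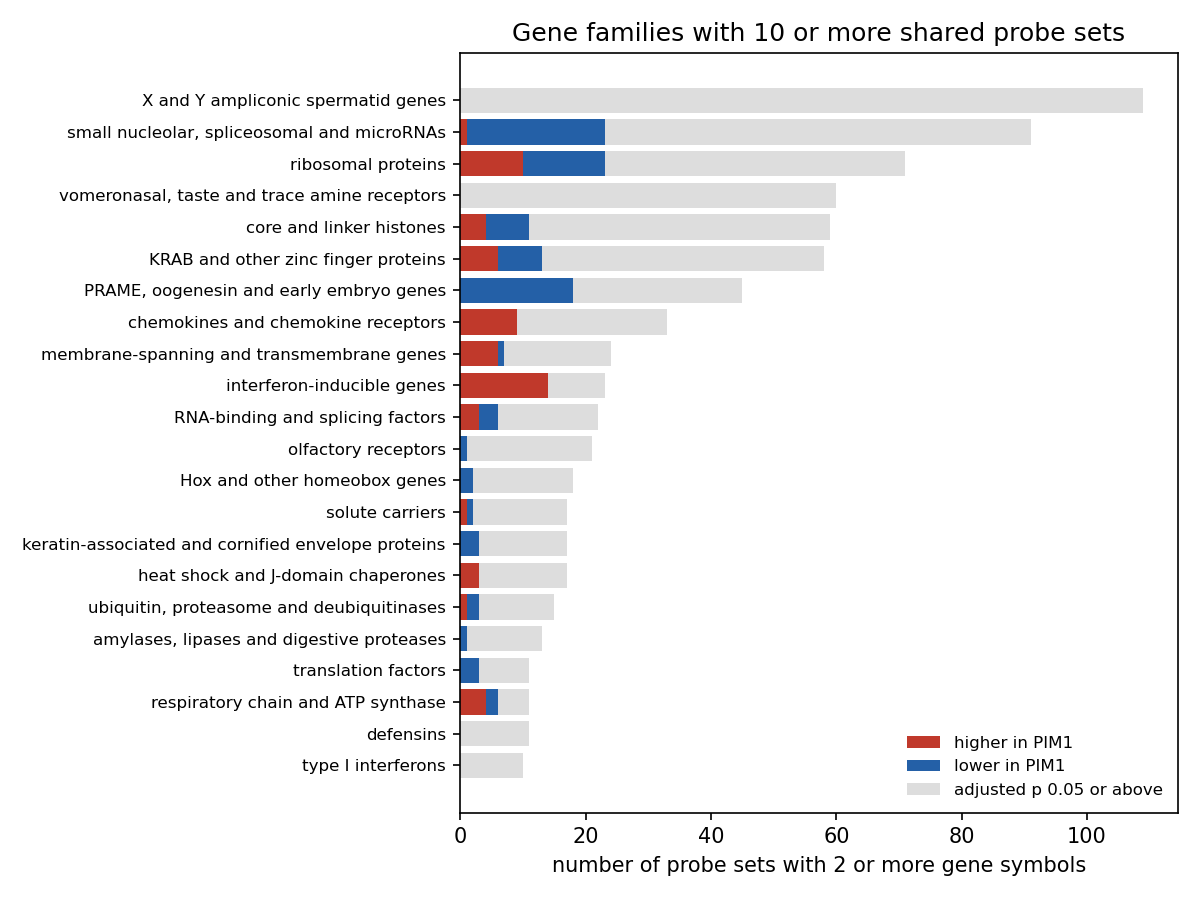
Number of shared probe sets (horizontal axis) in gene families with 10 or more members, split into higher in PIM1 (red), lower in PIM1 (blue) and not called (grey). Interferon-inducible genes show 14 of 23 higher, PRAME and early embryo genes 18 of 45 lower, and the X and Y ampliconic genes 0 of 109 called.

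Some well-known genes could be seen only through shared probe sets. Of 331 well-known genes looked up, 24 occurred on shared probe sets and had no probe set of their own. Gbp2, H2-Q7, Saa1, H2-D1, Aldoa and Rps2 were in a called set. Aldoa/Aldoart1, the glycolytic aldolase and a testis copy, rose from 4.71, 4.49 and 4.37 to 5.36, 5.54 and 5.30 (difference 0.87 ± 0.133, adjusted p = 0.00599), while the own set of Aldoart1 did not pass (-0.25, adjusted p = 0.517). Cd74/Mir5107, the invariant chain of class II molecules, read 3.72, 3.91 and 3.34 in EV and 4.17, 4.21 and 4.32 in PIM1. Its groups did not overlap, and it missed the threshold (0.57, adjusted p = 0.0571).

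The basal keratin set Krt5/Krt6a read 3.42, 3.76 and 3.13 in EV and 3.69, 3.68 and 3.44 in PIM1, overlapping and low in both groups (0.17). Ppia, the cyclophilin often used as a reference gene, stood at 11.26 to 11.44 in EV and 11.38 to 11.65 in PIM1 over its 2 sets (0.15 and 0.13, neither called). Prdx1, a peroxide-reducing enzyme, had a bright set near 10 that differed by -0.11 and 2 dimmer sets at 0.69 and 0.40, none called. H19/Mir675, an imprinted RNA with its microRNA, differed by -0.42 and was not called. The haemoglobin sets Hba-a1/Hba-a2 and Hbb-b1/Hbb-bs lay between 1.01 and 3.41, and none was called.

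**Figure D4:**
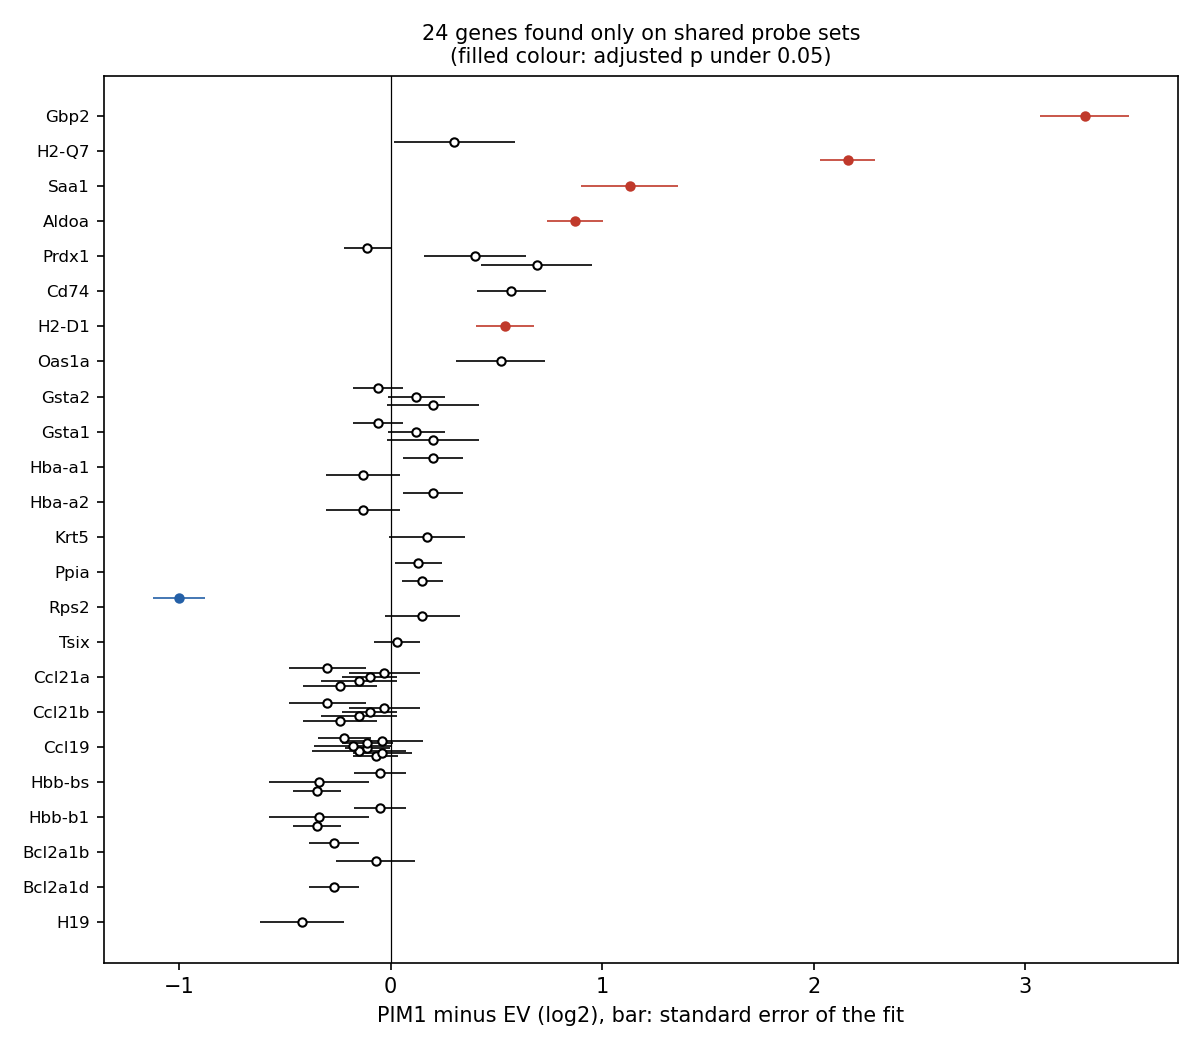
PIM1 minus EV difference (log2, horizontal axis) with the standard error of the fit as bars, for 24 genes that occur only on shared probe sets; each point is a distinct probe set, coloured where the adjusted p was under 0.05. Gbp2 lies at 3.28 and H2-Q7 has points at 2.16 and 0.30, while most other genes lie within 1 unit of 0.

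Where a symbol also had a probe set of its own, the shared and the own value were placed side by side. Of 337 called members 215 had such a partner. The own set was called in the same direction only in 76 members, in the opposite direction only in 8 and in both directions in 4, and in 127 no own set was called. With identical rows counted once these numbers were 57, 8, 4 and 124 of 193. Among the opposite cases, Ptma/Ptma-ps2 fell by 0.73 while the own set of prothymosin alpha, Ptma, rose from 11.20, 11.55 and 11.42 to 12.24, 12.14 and 12.07 (difference 0.76, adjusted p = 0.00893). Oaz1-ps/Oaz1, the antizyme that limits polyamines, rose by 0.53, and its own set fell from 8.89, 8.50 and 8.70 to 6.94, 7.18 and 6.69 (difference -1.76, adjusted p = 0.000921). Gm7429/Gm6109/Rpl30 fell by 0.63 beside a rise of 0.86 in the own set of Rpl30. The shared Oaz1 set lost its call without PIM1 replicate 1 or 2 (adjusted p = 0.0676 and 0.074), and the shared Rpl30 set without EV replicate 1 or 2 or PIM1 replicate 1 or 2 (adjusted p = 0.0963 to 0.133).

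**Figure D5:**
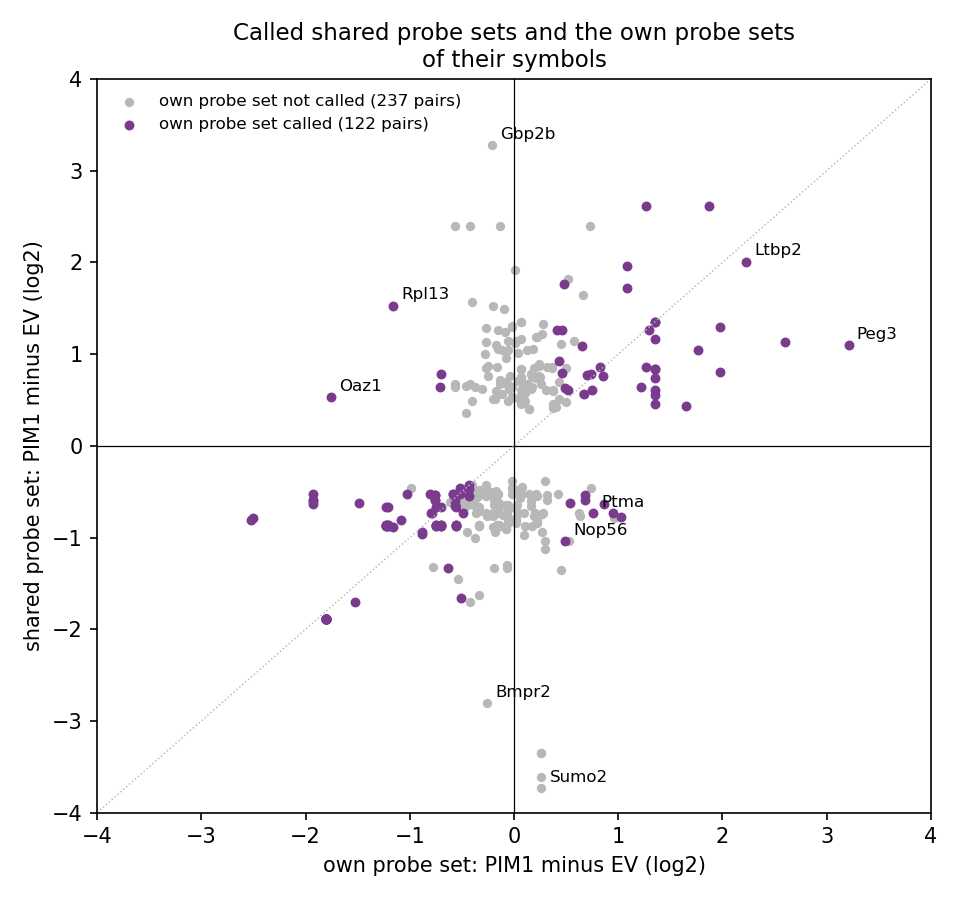
Each point pairs a called shared probe set (PIM1 minus EV, log2, vertical axis) with an own probe set of 1 of its symbols (same quantity, horizontal axis); purple points are own sets that were called and grey points own sets that were not. Ltbp2 lies near the dotted line of equality, Sumo2 and Bmpr2 lie far below it near 0 on the horizontal axis, and Ptma, Nop56, Oaz1 and Rpl13 lie in the quadrants of opposite sign.

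Several probe sets with the same symbols also differed among themselves. There were 223 symbol sets with 2 or more distinct probe sets, 592 probe sets in all, and the median range of their differences was 0.25. In 69 of these symbol sets at least 1 probe set was called. In 20 of the 69 all were called in 1 direction, in 49 some were called and some were not, and in 0 were probe sets called in both directions. The widest ranges were those of the H2A group (-1.63 to 0.40), H2-Q7/H2-Q8/H2-Q9 (0.30 to 2.16) and the H4 group (-0.73 to 0.89). Of 387 members that joined 2 genes of unrelated name, the gene listed first had its own probe set in 79 and the gene listed second in 223.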

How the data were processed

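Expression was measured on 6 Affymetrix whole-transcript arrays, 3 of EV and 3 of PIM1 cells. The deposited log2 values, 1 per probe set and array, come from Affymetrix Expression Console per the submitters' processing notes. For its version, the normalization and the log base the sources used here give nothing, so the values are taken as log2. The values are summaries of many probes without a depth, and the number of arrays limits the precision.

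Symbols came from GEO's platform annotation, where 23525 probe sets had 1 symbol, 1810 several and 16010 none. Gene families came from lists of symbol patterns, and gene order, promoters and microRNAs from RefSeq tables of GRCm38.p6. All 41345 probe sets entered 1 two-sided group comparison by lmFit and eBayes of limma 3.58.1 (R 4.3.3), with Benjamini-Hochberg adjustment over the whole table, and the scripts were tested on simulated data. Standard errors are those of the fit, and a call is an adjusted p under 0.05.

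The members and lists were chosen with earlier results of these data known. Named members were the 12 largest called rises and falls without overlap between groups (identical rows once), and the 2 to 4 with the smallest p in each family of 4 or more with a call. They also held members with a listed well-known gene that has no own probe set, those with the smallest p in each kind, and exceptions whose own set moved the other way. The microRNA members, Ifi27l2a, Ifi211, Sp110, Gm7609/Sp100, Slfn9, Prl2c, Raet1e, Parp10, Trf, Eid1, Zeb2, Peg3, Txnip, Mphosph8, Cnot1, Itprip, Snora5c, Snora43 and Rpl28 were added after their values were seen. Alternatives were variance, normalization, filters, a replicate block and leaving out each array. Replicate numbers did not pair the samples. Some single-gene and gene-family values, which the totals include, are not reported here.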

Additional observations from a re-analysis of the deposited data

How the results depend on the processing

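Of 167 named members 95 were called, and 65 of these were called under every setting tested. The 337 calls became 215 with the replicate block (lower calls 100, and 3080 for probe sets with 1 symbol), and the numbers gave no pairing, since same-numbered deviations correlated at 0.0496, -0.0177 and -0.0137. Only members with 2 or more named symbols gave 220 calls, 105 of them lower, because fewer probe sets were counted. Trended and robust variance gave 382 calls. Testing only the brighter probe sets gave 399, and testing only probe sets with a symbol gave 472. Leaving out 1 array gave 164 to 269 calls, 85 to 139 higher and 79 to 139 lower, with 3614 to 5643 over all probe sets, 2563 to 3735 with 1 symbol and 887 to 1639 with none; each low came without PIM1 replicate 2. Without PIM1 replicate 1 the counts were 176, 96, 80, 3798, 2695 and 927 in that order, and without PIM1 replicate 3 the count with no symbol was 1169. Each fit without an array has fewer samples. With identical rows kept once, an alternative chosen after seeing the data, 305 were called.

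The reversals were all of values near 0 that had not been called, and the cause was not tested beyond the shift of the median by 0.07 (quantile), 0.08 (loess) or 0.10 (centring). In that order of settings, B230323A14Rik/Foxb1 took 0.04, 0.04 and 0.01, Bcl2a1b/Bcl2a1a 0.07, 0.07 and 0.03, the Ccl21c set 0.05, 0.04 and 0.07, Gsta2/Gsta1/Gm10639 0.07, 0.08 and 0.04, and Hbb-bs/Hbb-b2/Hbb-b1 0.09, 0.10 and 0.05. Centring alone turned Ccl19 sets to 0.03, 0.06 and 0.06 and the Ccl21a set to 0.00.
Fits without 1 array gave, across 0, -0.19 to 0.11 for Bcl2a1b/Bcl2a1a and the Ccl21c set, -0.18 to 0.03, -0.41 to 0.00 and -0.22 to 0.11 for 3 Ccl19 sets, -0.27 to 0.00 for Sox2ot/Mir1897 and -0.01 to 0.35 for Gsta1/Gm3776/Gsta2. They gave -0.01 to 0.20 for Gm3776/Gm10639/Gsta1/Gsta2, -0.13 to 0.01 for Gsta2/Gsta1/Gm10639, -0.29 to 0.04 for Hba-a2/Hba-a1, -0.12 to 0.04 for Hbb-bs/Hbb-b2/Hbb-b1 and -0.02 to 0.08 for Tsix/Xist.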
